A study of Mus musculus with 2 samples.

Results

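Histone genes were examined on 2 single-colour arrays, 1 for each of 2 helper T cell cultures. The genes were taken by symbol from a RefSeq gene table: every gene named as a member of the histone clusters Hist1 to Hist4 or by its newer H1f, H2a, H2b, H3c or H4c name, together with H2ax (formerly H2afx), H2az1 (H2afz), H2az2 (H2afv), Macroh2a1 (H2afy), H3f3a, H3f3b and H1f0. H2 genes of the major histocompatibility complex were left out. The rule took 110 genes, of which 71 belong to the replication-dependent clusters and 39 are variants. Of the 110, 55 had a probe through the RefSeq accession on the array (70 probes in all), out of 18434 named genes with a probe. Signals were well above background on both arrays for 45 of these genes, 29 replication-dependent and 16 variant. H1f7 was detected in Th9+IFNgamma only, and 9 genes were not well above background in either culture.

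Histones package DNA: H2A, H2B, H3 and H4 form the core of the nucleosome, and H1 binds the DNA between cores. Replication-dependent histone genes lie in clusters, are transcribed in S phase when new chromatin is built, and mostly give intronless mRNAs that end in a stem loop, bound by the protein SLBP, in place of a poly(A) tail. Variant histones are mostly made from polyadenylated mRNAs, outside S phase as well, and mark particular chromatin. H2ax mRNA occurs with both kinds of end. Dividing T cells make large amounts of the replication-dependent class.

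Both cultures held wild-type C57BL/6 mouse splenic CD4 T cells, sorted magnetically to over 98% purity, activated for 2 days with antibodies to the T cell receptor and CD28, and kept for a further 3 days, 5 days in all. The Th9 medium contained 10 ng/ml of IL-4, 3 ng/ml of TGFbeta and 1 µg/ml of an anti-IFNgamma antibody. The Th9+IFNgamma medium contained 3 ng/ml of IL-4, 3 ng/ml of TGFbeta and 10 ng/ml of IFNgamma, so the cultures differed in IFNgamma, in the antibody and in the dose of IL-4. How many mice gave the cells is not given in the labels, and both arrays lay on the same slide. With 1 array per condition no value has a replicate, no test was made, and a difference is described by its size against a 2-fold threshold.

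A scaled signal is a probe's background-corrected brightness, multiplied so that the 75th percentile of each array is 598.6. It compares a gene with itself between the arrays and not with another gene. A log2 difference is Th9+IFNgamma minus Th9, so that 1 is 2-fold higher in Th9+IFNgamma. Folds are ratios of scaled signals. Each histone probe was printed once, and the extraction software's own error on the log2 difference of the measured histone probes was 0.20 to 0.39. Over 135 other probes printed repeatedly, the SD of the log2 difference among spots of the same probe was 0.11, which holds none of the spread between cultures. Many histone genes are near-identical in their coding sequence, so a probe can take up mRNA of a relative, and genes of a type are not independent readings. The labels name an Agilent Quick Amp kit, and kits of this kind start from poly(A) tails, so that the forms of a stem-loop mRNA that each probe read are not known. In RNA of whole cultures, fewer cells that make histone mRNA and less of it per cell cannot be told apart.

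The 300 bases around the gene start (250 before, 50 after) are shown for 4 genes whose values mark the range of the results: H1f1, the member with the highest difference, H1f2, the replication-dependent member with the lowest, H2bc14, the H2B gene with the highest, and the variant H1f0. The sequences are RefSeq's, build GRCm38.p6, plus strand, 5′ to 3′. Capitals mark motifs found on either strand. The TATA motif searched was spelled TATAAA. The motif bound by the factor NF-Y was searched as CCAAT. The octamer known from H2B promoters was ATTTGCAT. The H1 box known from linker histone promoters was searched as AAACACA.
H1f1, chr13:23763418-23763717: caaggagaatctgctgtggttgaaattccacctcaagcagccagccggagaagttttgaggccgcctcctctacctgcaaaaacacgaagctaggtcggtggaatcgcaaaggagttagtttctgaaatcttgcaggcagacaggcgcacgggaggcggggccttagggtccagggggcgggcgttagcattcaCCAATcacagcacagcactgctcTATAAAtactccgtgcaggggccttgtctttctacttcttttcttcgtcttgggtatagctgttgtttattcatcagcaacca
H1f2, chr13:23738557-23738856: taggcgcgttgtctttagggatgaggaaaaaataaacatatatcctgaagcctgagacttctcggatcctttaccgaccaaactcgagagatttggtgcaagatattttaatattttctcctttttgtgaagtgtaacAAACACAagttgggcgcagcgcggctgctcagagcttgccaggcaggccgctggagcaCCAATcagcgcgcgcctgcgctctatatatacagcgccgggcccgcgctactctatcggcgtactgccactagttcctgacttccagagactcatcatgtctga
H2bc14, chr13:21721794-21722093: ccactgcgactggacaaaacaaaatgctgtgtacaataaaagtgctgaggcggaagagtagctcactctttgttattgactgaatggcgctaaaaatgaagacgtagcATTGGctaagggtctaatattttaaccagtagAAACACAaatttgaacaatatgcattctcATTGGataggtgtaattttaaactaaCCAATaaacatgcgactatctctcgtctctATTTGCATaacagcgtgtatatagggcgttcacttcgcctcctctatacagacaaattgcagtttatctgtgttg
H1f0, chr15:79027962-79028261: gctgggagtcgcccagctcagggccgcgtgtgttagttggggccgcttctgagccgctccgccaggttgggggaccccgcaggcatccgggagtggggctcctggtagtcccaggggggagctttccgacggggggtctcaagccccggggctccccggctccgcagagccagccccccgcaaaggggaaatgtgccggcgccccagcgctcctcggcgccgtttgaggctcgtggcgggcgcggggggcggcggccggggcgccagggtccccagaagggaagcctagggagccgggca

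In H1f1 the CCAAT box begins 56 bases before the gene start and the TATA box 33 bases before it. H1f2 has its CCAAT box at 54 bases and an H1 box at 112 bases before the start. H2bc14 has CCAAT boxes at 142, 81 and 55 bases, an H1 box at 110 bases and the octamer at 25 bases. H1f0 holds none of these motifs, and 75% of its bases are G or C, against 52% in H1f1 and 50.3% in H1f2.

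These motifs followed the class of the gene. The RefSeq table held 63 promoters of 62 replication-dependent genes. Of these 63, 54 held CCAAT (85.7%), against 13 of 35 variant promoters (37.1%) and 37.4% of all 32851 promoters. TATAAA stood in 35 of the 63 (55.6%), in 3 of the 35 (8.57%) and in 13.6% of all. The octamer stood in 14 of the 63 (22.2%), in 1 of the 35 (2.86%) and in 1.74% of all. By type, it stood in 7 of 17 replication-dependent H2B promoters (41.2%) and in none of 6 replication-dependent H1 promoters. The H1 box stood in 5 of those 6 H1 promoters (83.3%), but in 9 of the 63 (14.3%), in 1 of the 35 (2.86%) and in 7.18% of all. Of the 29 replication-dependent genes measured on both arrays, 25 had a promoter in the table. CCAAT stood in 13 of 15 promoters of the genes past 2-fold upward and in 10 of 10 of the others. TATAAA stood in 11 of the 15 and in 6 of the 10. A match is a run of letters and was not examined as a binding site.

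Replication-dependent histone genes were higher in Th9+IFNgamma. Of 29 measured, 17 (58.6%) were at least 2-fold higher, where 5.15% of all 12272 measured genes were, and 1 was at least 2-fold lower, where 7.42% of all genes were. Among the 6057 genes with a mean scaled signal of at least 1000, 4.01% reached 2-fold in the higher direction and 3.78% in the lower. The median log2 difference of the 29 was 1.04, a ratio of 2.06, beside -0.01 over all genes. In 25 of the 29 the Th9+IFNgamma signal was the higher, and the exceptions were H1f2, H2bc4, H2bc21 and H2ac8. Since 8 members lay between 2-fold and the 2.16-fold of H4c14, the count depends on small shifts: it was 13 with loess on intensity and 19 with median scaling. Just inside the threshold stood H2bc12 at 2.01-fold, and just outside it H2bc1 at 1.999-fold and H2ac20 at 1.95-fold.

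**Figure D1:**
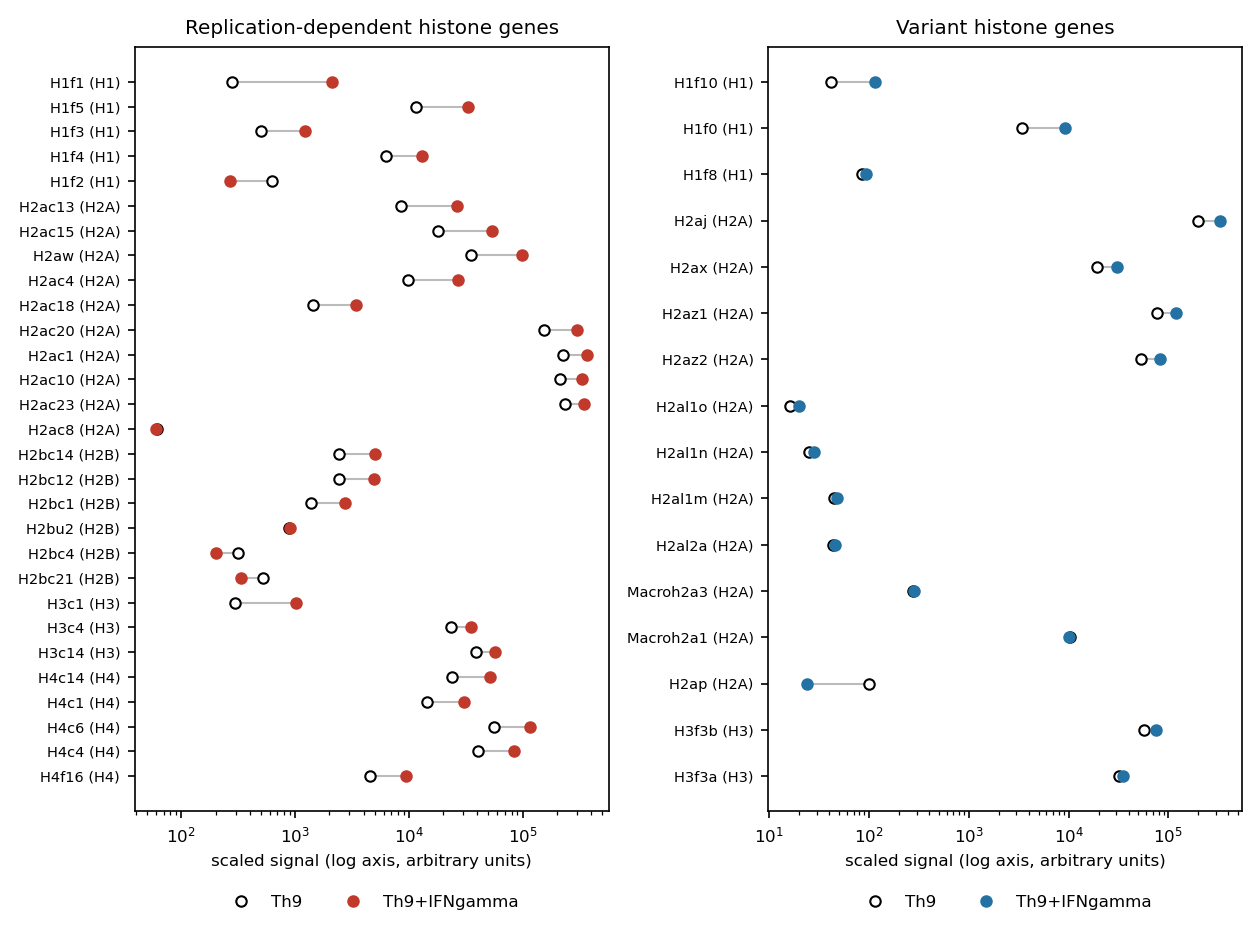
Scaled signal of each of the 45 histone genes measured on both arrays (log axis, arbitrary units), Th9 as open circles and Th9+IFNgamma as filled circles, replication-dependent genes in the left panel and variants in the right one, with the histone type in brackets. Each point is 1 array; 25 of the 29 replication-dependent genes have the filled circle on the right, and H1f2, H2bc4, H2bc21 and H2ap have it clearly on the left.

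The H1 genes, which encode the linker histones, spread over the widest range of the replication-dependent types. H1f1 (Hist1h1a) was read at 2119 in Th9+IFNgamma and 279 in Th9, 7.59-fold higher and a log2 difference of 2.92. H1f5 (Hist1h1b) was read at 33366 and 11496 (2.90-fold), and H1f3 (Hist1h1d) at 1218 and 506 (2.41-fold), where its other probe was not well above background in either culture. H1f4 (Hist1h1e) was read at 12947 and 6295, just past 2-fold at 2.06. H1f2 (Hist1h1c) went the other way, with 268 in Th9+IFNgamma and 626 in Th9, 2.33-fold lower. H1f2 is among the cluster genes known to give polyadenylated mRNA as well, a trait that was not looked up for the higher members. The testis gene H1f6 (Hist1h1t) was not well above background in either culture. Of the 5 measured H1 genes, 4 thus passed 2-fold upward and 1 downward. Their median was 1.27.

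Of 10 measured H2A genes, 5 passed 2-fold upward in Th9+IFNgamma, 4 were between 1.46-fold and 1.95-fold higher, and H2ac8 was equal to within 1.02-fold at 60.4 and 61.6. H2ac13 (Hist1h2ai) was read at 26416 in Th9+IFNgamma and 8455 in Th9, 3.12-fold higher. H2ac15 (Hist1h2ak) was read at 53618 and 17898 (3.00-fold), and H2ac4 (Hist1h2ab) at 26802 and 9803 (2.73-fold). H2ac18 (Hist2h2aa1), from another cluster, was read at 3449 and 1442, 2.39-fold higher. H2aw (Hist3h2a) had probes that disagreed: its bright probe was read at 98063 and 35247 (log2 difference 1.48), and its dim probe had a difference of -0.21. The remaining 4 genes had the brightest probes of the class. H2ac20 (Hist2h2ac) was read at 299483 and 153698, 1.95-fold higher. H2ac1 (Hist1h2aa), known as a testis histone gene, was read at 367304 and 226749 (1.62-fold). H2ac10 (Hist1h2af) was read at 334394 and 213257 (1.57-fold), while its second probe had a log2 difference of 1.54. H2ac23 (Hist1h2ao) was read at 342709 and 234254, 1.46-fold higher. H2ac6 was not well above background in either culture.

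The brightest probes showed smaller differences than those of middle brightness. At a mean signal of 150000 or more, 4 replication-dependent probes had differences of 0.55 to 0.96 (median 0.67), where all 68 genes that bright had a median of -0.23. From 20000 to 150000, 9 probes had 0.57 to 1.58 (median 1.10), and from 1000 to 20000, 11 probes had 1.00 to 1.64 (median 1.05), each beside an all-gene median of 0.07 and 0.06. Under 1000, 9 probes ran from -1.22 to 2.92 with a median of -0.03. No spot was saturated, and the highest raw histone signal was 373391 against a saturation value of 778992. The part of brightness in these differences was not tested beyond the loess setting, under which the class median was 0.99.

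**Figure D2:**
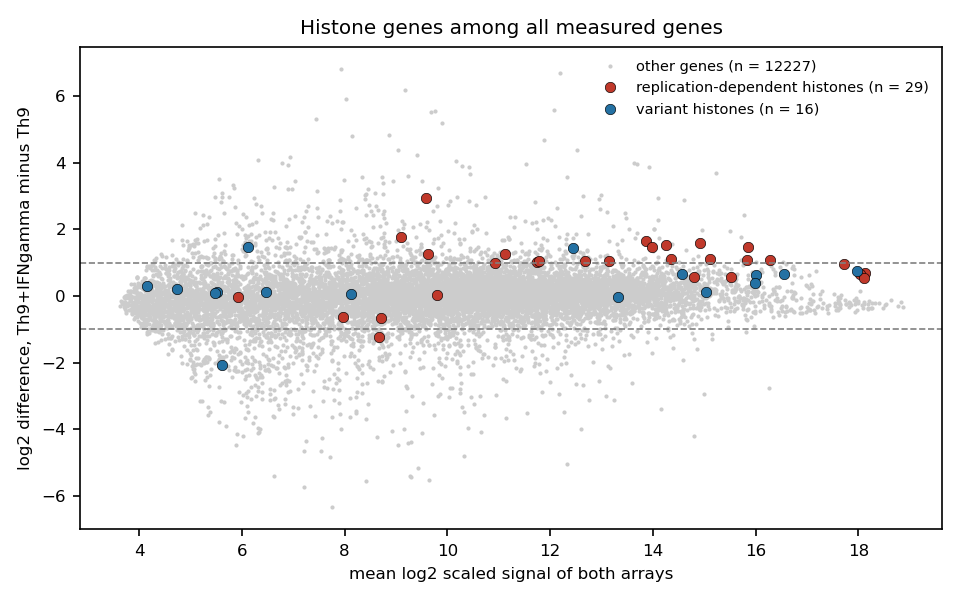
Log2 difference (Th9+IFNgamma minus Th9) against the mean log2 scaled signal of both arrays, 1 point per gene: all other measured genes in grey, 29 replication-dependent histone genes in red and 16 variants in blue, with dashed lines at 2-fold. Most red points lie near or above the upper line across the middle of the signal range, and the brightest ones lie below it.

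H2B genes were divided. H2bc14 (Hist1h2bm) was read at 5071 in Th9+IFNgamma and 2449 in Th9, 2.07-fold higher, and H2bc12 (Hist1h2bk) at 4898 and 2435, with log2 differences of 1.01 and 1.06 by its 2 probes. H2bc1 (Hist1h2ba), known as the testis H2B gene, was read at 2756 and 1379, 1.999-fold higher. H2bu2 (Hist3h2ba) was nearly equal at 905 and 887. H2bc4 (Hist1h2bc) and H2bc21 (Hist2h2be) were lower in Th9+IFNgamma. Some cluster genes are known to give polyadenylated transcripts besides the stem-loop form, H2bc4, H2bc21 and H1f2 among them. Which other members do so, the higher ones included, was not examined. Of the 16 measured variants, whose class is mostly made from polyadenylated mRNAs, 14 were higher in Th9+IFNgamma. The part of the transcript form in the result was not tested. H2bc4 was read at 200.4 and 314, 1.57-fold lower, and H2bc21 at 332 and 524, 1.58-fold lower. Neither reached 2-fold. With 2 of 6 at least 2-fold higher, the H2B median was 0.51. H2bc6 and H2bc23 were not well above background in either culture.

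Only 3 of 12 replication-dependent H3 genes had a probe, and all 3 were measured and higher in Th9+IFNgamma. H3c1 (Hist1h3a) was read at 1014 and 297, 3.42-fold higher. H3c4 (Hist1h3d) was read at 34909 and 23477 (1.49-fold), and H3c14 (Hist2h3c1) at 57559 and 38877 (1.48-fold). The probes of H3c4 and H3c14, from different clusters, gave log2 differences of 0.57 and 0.57, well under that of H3c1. Since a probe can take up mRNA of a relative, these need not be independent readings.

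The H4 genes, whose proteins are the most conserved of the histones, were the most uniform type, though their probes need not be independent readings. H4c14 (Hist2h4) was read at 52081 in Th9+IFNgamma and 24154 in Th9, 2.16-fold higher. H4c1 (Hist1h4a) was read at 30780 and 14318 (2.15-fold), H4c6 (Hist1h4f) at 115862 and 55406 (2.09-fold), and H4c4 (Hist1h4d) at 84151 and 40316 (2.09-fold). H4f16 (Hist4h4), a gene outside the large clusters, was read at 9404 and 4594, 2.05-fold higher. All 5 measured genes were thus at least 2-fold higher, with folds from 2.05 to 2.16. Their distance from the threshold was smaller than the software's error, and it was not reached by H4f16 with loess on intensity (0.98) and quantile normalization (0.97), nor by H4c4 with normexp (0.97).

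**Figure D3:**
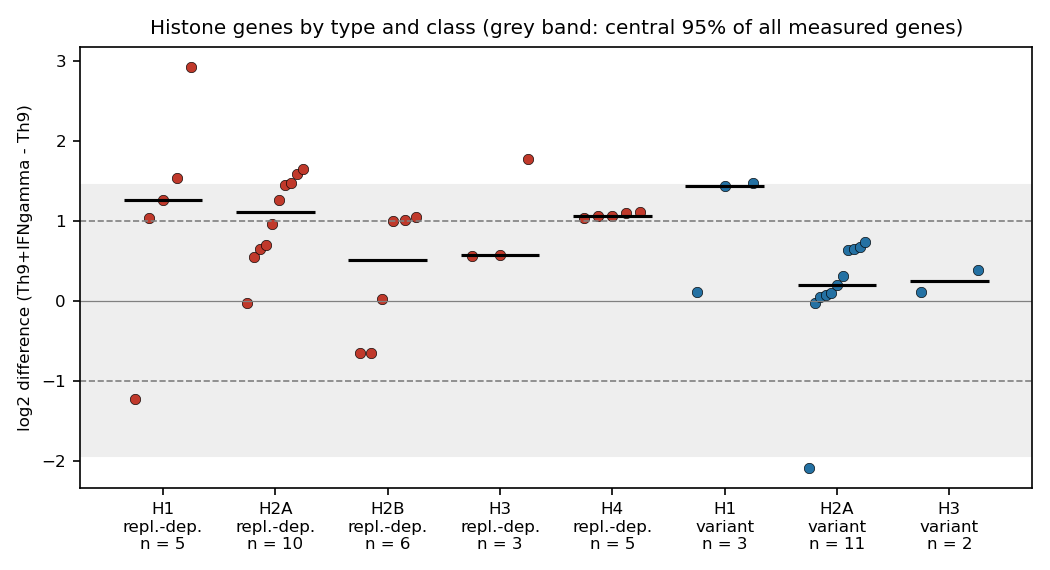
Log2 difference (Th9+IFNgamma minus Th9) of each measured histone gene by type and class, replication-dependent genes in red and variants in blue, with a bar at the median, dashed lines at 2-fold and a grey band for the central 95% of all measured genes (-1.94 to 1.45). The 5 H4 points lie together just above 1, whereas H1 runs from -1.22 to 2.92.

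By genomic cluster, Hist1 had 13 of 21 measured genes past 2-fold upward and 1 downward (median 1.05). The shares of all measured genes were 5.15% upward and 7.42% downward. In Hist2, 2 of 5 were at least 2-fold higher (median 0.96), in Hist3, 1 of 2, and in Hist4, 1 of 1. The Hist3 call is that of H2aw, whose probes disagreed in sign (1.48 and -0.21).

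As a class, variant histone genes showed smaller differences. Of 16 measured, 2 (12.5%) passed 2-fold upward (H1f0 and H1f10) and 1 downward (H2ap), where 5.15% and 7.42% of all measured genes did. The median was 0.25, and 0.20 without H2ax. That median mixes genes used in body cells with dim germline genes and a pseudogene. Of the 9 measured somatic variants, 2 (22.2%) passed 2-fold upward and none downward, with a median of 0.65. The 7 others had a median of 0.10. The gap between the class medians was 0.79 with all variants and 0.39 with the somatic ones alone, a split added after the values were seen. The direction of the gap was the same in both, and its size depends on which variants are counted. It was not the same in every type. The median of the 3 measured variant H1 genes was 1.43, beside 1.27 for the 5 replication-dependent H1 genes. For H2A the medians were 0.20 and 1.11, with dim germline genes among the variants, and for H3 they were 0.25 and 0.57.

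Among the linker variants, H1f0, known to accumulate in cells that stop dividing, was read at 9180 in Th9+IFNgamma and 3406 in Th9, 2.70-fold higher, by its brightest probe. Its other 2 probes, both dim, gave log2 differences of 0.52 and 0.41, so the call rests on 1 probe. H1f10 (H1fx) was dim, at 116 and 41.9, 2.77-fold higher, and its log2 difference of 1.47 was 0.78 with normexp background correction. The oocyte gene H1f8 (H1foo) was read at 92.7 and 85.9. The spermatid gene H1f7 (H1fnt) was read at 15.4 in Th9+IFNgamma and was not well above background in Th9 (9.11), a difference of at least 1.23-fold, taken against the lowest detected signal on the Th9 array.

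Of the H2A variants, H2az1 and H2az2, which encode the H2A.Z forms found at gene starts, were read at 120184 against 76466 (1.57-fold higher in Th9+IFNgamma) and 82018 against 52956 (1.55-fold). H2ax, whose protein is phosphorylated at DNA breaks, was read at 30732 and 19337, 1.59-fold higher. These 3 genes thus had log2 differences of 0.65, 0.63 and 0.67. H2aj (H2afj) was read at 333259 and 199494 (1.67-fold) by a probe as bright as those of the replication-dependent H2A genes, while its second probe had a log2 difference of -0.34. Macroh2a1, whose protein carries a large extra domain and is associated with silent chromatin, was nearly equal at 10099 and 10251, and its 3 probes ran from -0.03 to 0.18. Macroh2a2 (H2afy2) was not well above background in either culture.

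The H3.3 genes, which supply the H3 variant deposited outside DNA replication, lay within 2-fold. H3f3a was read at 35064 and 32354, 1.08-fold higher in Th9+IFNgamma, with probes from 0.04 to 0.20. H3f3b was read at 74630 and 57199, 1.30-fold higher, with probes from 0.14 to 0.47. Neither of them reached the 0.57 of the lowest replication-dependent H3 gene by any of their 6 probes.

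The germline genes H2al1m, H2al1n, H2al1o and H2al2a were read between 16.1 and 47.6 on either array, with log2 differences from 0.07 to 0.31 (0.55 by a second probe of H2al1m), and the pseudogene Macroh2a3 at 285 and 275. H2ap, an X-linked H2A variant gene, was read at 23.6 in Th9+IFNgamma and 100.2 in Th9, 4.24-fold lower. With normexp its difference moved from -2.08 to -0.95. H2ab1, H2al3, H2bfm and H2bl1 were not well above background in either culture.

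Genes for the supply of histone mRNA and the handling of histone proteins showed smaller differences than the replication-dependent histone genes. Their list medians were slightly above the 0.25 of all measured variants and below the 0.65 of the somatic variants. Of 19 genes for histone mRNA transcription and 3′ end formation, none was at least 2-fold apart in either direction, and the median was 0.29. Of all measured genes, 5.15% were at least 2-fold higher and 7.42% lower, shares at which a list this short would hold few. Slbp, which encodes the stem-loop binding protein, was read at 12979 in Th9+IFNgamma and 9235 in Th9, 1.41-fold higher. Npat, the coactivator of histone gene transcription, was read at 814 and 756 (1.08-fold), and Casp8ap2, a component of the histone locus body, at 1761 and 1442 (1.22-fold). The highest of the list were Srrt (1.71-fold) and Ccne2, a cyclin E gene (1.63-fold), and the lowest were Lsm11 (1.23-fold lower) and Lsm10 (1.03-fold lower), both of the U7 particle that cuts histone mRNA. Of 24 measured histone chaperone genes, none was at least 2-fold apart, beside the same shares of all genes, with a median of 0.35. Asf1b, a chaperone of H3 and H4, was 1.88-fold higher and Daxx, a chaperone of H3.3, 1.80-fold higher. Ipo4, an importin that carries H3 and H4, was lowest with a log2 difference of -0.59, followed by Ino80 at -0.14.

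Genes of cell division were higher beside the histones. Of 19 genes of G2 and mitosis, 10 passed 2-fold upward in Th9+IFNgamma, the other 9 were higher by less, and the median was 1.00, so that small shifts move this count too. That median is the value of Bub1, whose other probe had a log2 difference of -0.05. With the median over probes the list median was 0.92. Top2a, the topoisomerase of dividing cells, was 2.32-fold higher and Plk1, a mitotic kinase, 2.25-fold higher. The smallest differences were those of Cdc20 (1.60-fold higher) and Aurkb (1.73-fold higher). Mki67, a marker of dividing cells, was read at 44926 and 25736 (1.75-fold), and Cenpa, which encodes the H3 variant of centromeres, at 4433 and 2059 (2.15-fold). Of 27 measured S phase genes, 3 (11.1%) passed 2-fold upward and none downward, beside 5.15% and 7.42% of all measured genes, and the median was 0.57. Tk1 (2.42-fold) and Tyms (2.38-fold), both enzymes of thymidine nucleotide supply, were highest, with Pola1 at 2.04-fold, named after its value was seen. Pcna, the sliding clamp of DNA polymerase, was 1.43-fold higher at 59901 and 41796. Ung, which encodes the enzyme that removes uracil from DNA, was 1.32-fold lower. The part of cell division in the histone differences was not tested.

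**Figure D4:**
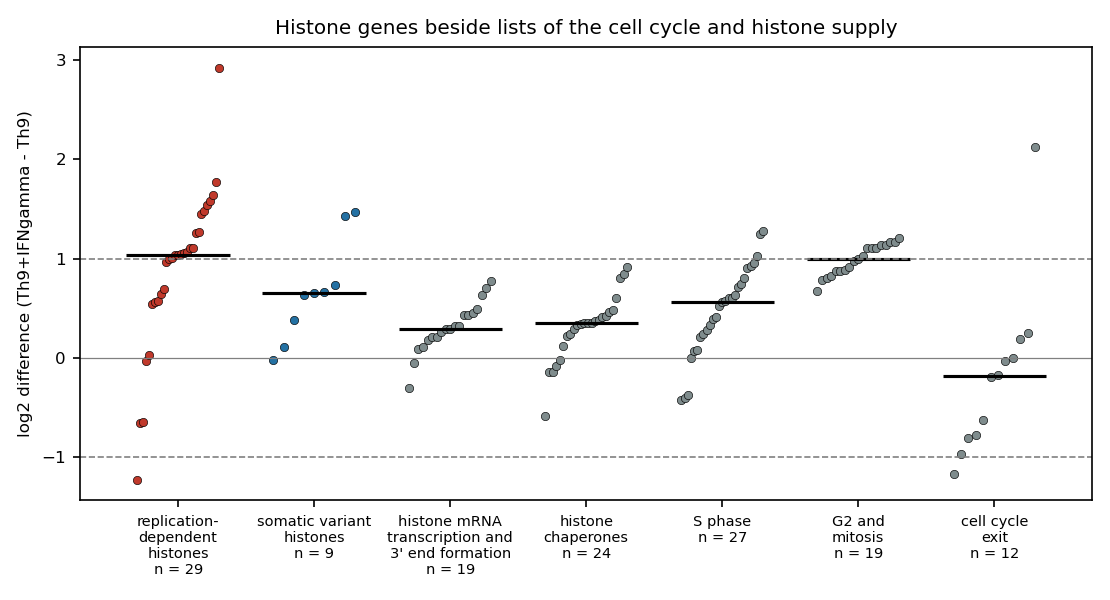
Log2 difference (Th9+IFNgamma minus Th9) of each measured gene in 7 groups, with a bar at each median and dashed lines at 2-fold. The medians are 1.04 for replication-dependent histones, 0.65 for somatic variants, 0.29 and 0.35 for the lists of histone mRNA and chaperones, 0.57 for S phase, 1.00 for G2 and mitosis and -0.18 for cell cycle exit.

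Genes linked to leaving the cell cycle had no common direction. Of 12, 1 (8.33%) passed 2-fold upward and 1 downward, beside 5.15% and 7.42% of all measured genes. The median was -0.18, with 4 genes higher in Th9+IFNgamma and 8 not. Cdkn2c, which encodes the inhibitor p18, was 4.36-fold higher in Th9+IFNgamma (3075 and 705), followed by Cdkn1b at 1.19-fold. Rb1, which encodes the retinoblastoma protein, was 2.25-fold lower by 1 probe and had -0.48 by the other, and Cdkn1a, which encodes p21, was 1.95-fold lower.

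Markers of the labelled cells were present. All 7 CD4 T cell markers were measured on both arrays, with summed signals of 164911 in Th9+IFNgamma and 146267 in Th9, none 2-fold apart. That sum rested mostly on Cd3d, Lck and Cd5 and is no measure of Cd4 itself, which was read at 502 and 444. Of the 5 B cell markers, 3 were measured on both arrays, Cd79a in Th9 only and Pax5 on neither (summed 930 and 1317). Of the 3 NK cell markers, 2 were measured and Ncr1 was not (38.6 and 114). Of the 5 myeloid markers, 3 were measured, while Lyz2 and Itgam were not well above background (91.0 and 247). Of the 3 dendritic cell markers, 2 were measured and Itgax was not (65.1 and 81.8). Of the 3 erythroid markers 2 had a probe, and neither was detected. Cd8a, read at 1338 and 1074, was the only CD8 marker with a probe. The summed signals, which include undetected markers, were lower in Th9+IFNgamma for B, NK, myeloid and dendritic cell markers. The B cell sum rested mostly on Cd79b (844 and 1187). The NK sum rested on Klra8 (15.6 and 71.4) and Klrb1c (20.5 and 39.2), both dim. The brightest dendritic cell marker was Zbtb46, at only 44.7 and 53.6. The myeloid sum rested on Adgre1 (25.8 and 186), while Csf1r was nearly equal (34.1 and 34.3) and Cd14 was slightly higher (26.4 and 21.3). The part of these cell types in the result was not tested.

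**Figure D5:**
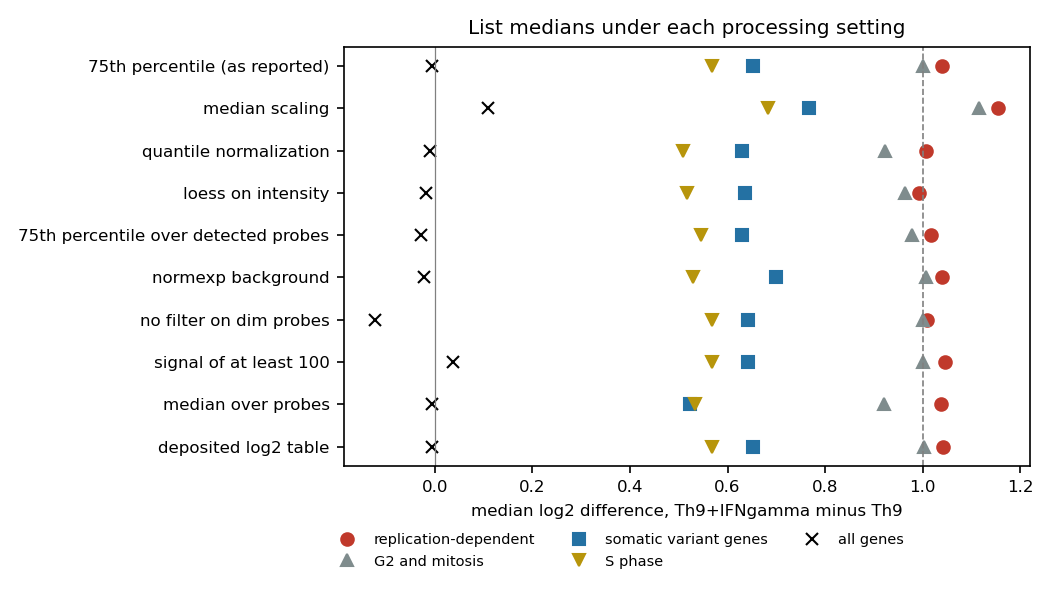
Median log2 difference (Th9+IFNgamma minus Th9) of 4 gene groups and of all measured genes under the reported scaling to the 75th percentile and 9 alternatives, 1 symbol per group. The replication-dependent median stays between 0.99 and 1.15, the somatic variant median between 0.52 and 0.77 and the all-gene median between -0.12 and 0.11.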

How the data were processed

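The authors' deposited intensity values are background-subtracted, detrended processed signals. The software was Agilent Feature Extraction (version 10.7.3.1 per the file headers, 10.7 in the submitters' processing notes), and signals were not scaled between arrays. A table of log2 values was deposited too. Set against the scanner values of probes with 1 spot, its columns equal log2 of the processed signal minus a constant for each array (SD 2.5e-07 and 2.2e-07). Its medians are -4.05 (Th9+IFNgamma) and -3.93 (Th9), and it served as an alternative. The deposited flags were used as other values.

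Control spots, outlier spots (99 and 71) and 3 probes with outlier spots alone were left out, spots of a probe averaged as log2, and each array's 75th percentile subtracted (631.9 and 567.0, linear). Of 41171 probes, 27050 matched 1 gene of GRCm38.p6 RefSeq by accession, and 23628 were well above background on both arrays. A gene takes its brightest such probe. A gene seen on 1 array has a bound against the higher of its own signal and the lowest detected signal there. The array headers name another build, so gene coordinates are given for RefSeq promoters only. With 1 array a condition no test was made, and the number of arrays limits precision. Python 3.11.15, R 4.3.3 and limma 3.58.1 were used. Normexp used median spot signals, since means are not in the files used here.

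Members and lists were chosen with earlier results of these data known. Named genes are all variants with a probe, replication-dependent members at least 2-fold apart (up to 15 a direction), the extremes of each type, members with probes of opposite sign, 6 set genes and the 2 extremes of each list in each direction; the remaining measured members were named after their values were seen. A gene that this rule names in the S phase list is not reported here.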

Additional observations from a re-analysis of the deposited data

How the results depend on the processing

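The alternatives were 9 settings of scaling, background, dim-probe filter, probe choice and source, plus changes of membership. The count of replication-dependent genes at least 2-fold higher stayed within 13 to 19. Of 397 alternative values of single members none that was 2-fold apart changed sign, but many of these values could hardly differ. The deposited table and the settings that only rescale an array shift all members by the same amount. The filters on dim probes left each member's value as it was, and probe choice can change only members with several probes. Median scaling moved the median of all genes from -0.01 to 0.11, and with it the replication-dependent median to 1.15, the variant median to 0.37, the type medians to 1.38 (H1), 1.22 (H2A), 0.63 (H2B), 0.69 (H3) and 1.18 (H4), and the list medians to 0.40 (histone mRNA), 0.47 (chaperones), 0.68 (S phase), 1.12 (G2 and mitosis) and -0.062 (cell cycle exit). The variant median was 0.36 with quantile normalization, 0.63 with signals of at least 100 and 0.65 without germline variants and pseudogenes, the last setting chosen after seeing the data. The gap between class medians was then 0.65, 0.41 and 0.39, and 0.67 with loess. Variants at least 2-fold higher numbered 1 with normexp, with signals of at least 100 and with the median over probes. Variants at least 2-fold lower numbered 0 with normexp, with signals of at least 100 and without germline variants, and 2 without a filter on dim probes. Without that filter 2 replication-dependent genes were at least 2-fold lower, and the medians were 1.15 for H1, 0.96 for H2A and 0.093 for H2B, since undetected genes enter. With signals of at least 100 the H2A median was 1.26. Over all genes, 1205 were at least 2-fold higher and 1788 lower without the filter, and 584 and 465 were lower with normexp and with signals of at least 100. No paired analysis was possible because each condition has 1 array. Dim variants are limited by their distance from background.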

Other observations

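Motifs known from interferon-induced genes were counted in the same RefSeq promoters, as letters on either strand. TTCNNNGAA, the gamma-activated sequence, stood in 3 of 63 replication-dependent histone promoters (4.76%), in none of 35 variant promoters and in 8.3% of all 32851 promoters. Of the 15 promoters of measured replication-dependent genes at least 2-fold higher in Th9+IFNgamma, 2 held it, and of the 10 others, 1 did.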
